A study of Mus musculus with 14 samples.

Results

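The arrays set mouse embryonic fibroblasts given SKO and HDAC7 directly against fibroblasts given SKO and MEF2C. The samples were chosen by title: 4 SKO+HDAC7 arrays and 4 SKO+MEF2C arrays, 2 of each at day 6 and 2 at day 10, which makes 8 of the 14 arrays in the series. The SKO+Flag and GFP arrays served to choose 1 probe set per gene, and entered 1 alternative fit of all 14 arrays and 2 alternative normalizations. The SKO+Flag arrays also gave levels for the transduced genes. The fibroblasts came from ICR mice, were grown in embryonic stem cell medium, and were freed of feeder cells before total RNA was taken. Both groups carry SKO, which the labels do not spell out and which in this field usually means Sox2 with Klf4 and with Pou5f1 (Oct4). The values are from bulk RNA, in which fewer cells of a type and less RNA per cell cannot be told apart. With the SKO+Flag arrays outside the comparison, a gene that HDAC7 raised and a gene that MEF2C lowered cannot be told apart either: every difference is SKO+HDAC7 minus SKO+MEF2C.

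HDAC7 is a class IIa histone deacetylase. Enzymes of this class have weak catalytic activity of their own, recruit corepressor complexes, and are best known for binding MEF2 transcription factors and silencing their targets. MEF2C activates muscle, neural and cardiovascular genes and cooperates with the serum response factor partners that drive contractile genes. In reprogramming, fibroblasts lose contractile and matrix genes and gain epithelial genes in a mesenchymal-to-epithelial transition before the pluripotency network is established.

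Values are log2 expression, so a difference of 1 is a doubling, and errors are standard errors (SE) of the difference. The 8 arrays were close in scale, with medians between 5.704 and 5.757, and the replicate pairs correlated at 0.9965 to 0.9975 over all probe sets, with an SD of their differences of 0.120 to 0.136. The leading principal component, with 58.7% of the variance, ran from -27.16 and -27.05 for SKO+HDAC7 at day 10 and -4.89 and -4.69 for SKO+HDAC7 at day 6 to 20.84 and 20.39 for SKO+MEF2C at day 6, with SKO+MEF2C at day 10 at 10.92 and 11.66. The labels number experiments 1 and 2 but do not say that they were separate cultures, so the p-values rest on a spread between arrays that may be technical only. Of the 10 fibroblast markers measured, Vim, Col1a1 and Col1a2 were high in both groups, and Fap lay below the median gene, which stood at 5.97 in SKO+HDAC7 and 5.96 in SKO+MEF2C. Lum lay below it in SKO+MEF2C only, at 5.58. The files used here give no detection call, so a level below that median may sit near background and a difference that involves one may be understated.

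Each transduced gene was far higher in its own group. Hdac7 stood at 11.16 and 11.16 at day 6 and 11.38 and 11.17 at day 10 in SKO+HDAC7, against 6.78 and 6.98 at day 6 and 6.94 and 7.02 at day 10 in SKO+MEF2C. The arrays did not overlap, and the difference of 4.29 ± 0.06 corresponds to 19.5-fold (limma, adjusted p = 1.22e-09). Mef2c stood at 6.55 and 6.53 at day 6 and 6.31 and 6.48 at day 10 in SKO+HDAC7, against 9.72 and 9.47 at day 6 and 9.93 and 9.80 at day 10 in SKO+MEF2C, a difference of -3.26 ± 0.09 or 9.60-fold (limma, adjusted p = 1.74e-07). The 4 SKO+Flag arrays held Hdac7 at 6.88 to 7.01 and Mef2c at 6.43 to 6.81, near the levels of the arrays that did not receive the gene in question. Of the shared factors, Pou5f1 (Oct4) was slightly higher in SKO+HDAC7, at 12.01 to 12.09 against 11.70 to 11.92 in SKO+MEF2C (0.21 ± 0.05, limma adjusted p = 0.0114). Klf4 differed by 0.13 ± 0.06 (adjusted p = 0.147) and Sox2 by -0.02 ± 0.06 (adjusted p = 0.869), which did not pass the test. Sox2 lay between 5.04 and 5.29 on all 8 arrays, below the median gene; whether its probes lie in the transduced sequence was not analysed here.

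**Figure D1:**
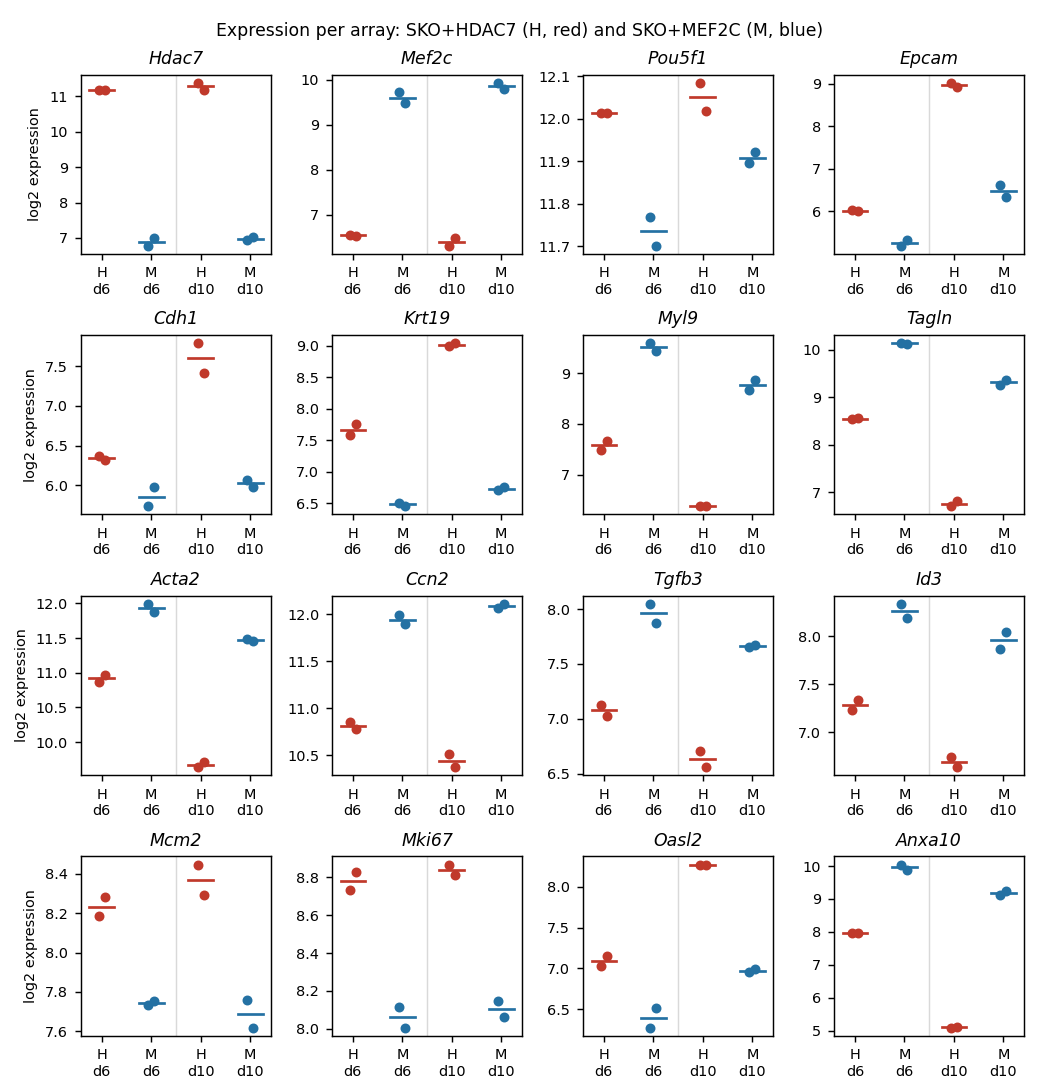
Log2 expression of 16 genes on each of the 8 arrays (points) with the mean of each pair (bars); SKO+HDAC7 (H, red) stands left of SKO+MEF2C (M, blue) within each day, and each panel has its own axis. Hdac7 and Mef2c separate the groups by 4.29 and -3.26, Myl9, Tagln and Acta2 are lower and Epcam and Krt19 higher in SKO+HDAC7, and Anxa10 has its lowest values, 5.09 and 5.12, in SKO+HDAC7 at day 10.

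Of 19935 genes tested, 3932 (19.7%) differed over both days at an adjusted p under 0.05 in limma. Of these, 1773 (8.89%) were higher and 2159 (10.8%) lower in SKO+HDAC7. Every list count over both days given below is to be read beside these shares. Most differences were small: their median size was 0.317, and 169 genes differed by at least 1, of which 56 were higher and 113 lower in SKO+HDAC7. At 2 or more stood 2 higher genes and 9 lower ones, the transduced genes included. All SKO+HDAC7 arrays lay above all SKO+MEF2C arrays within each day for 2664 genes (13.4%), and below them for 2779 (13.9%).

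**Figure D2:**
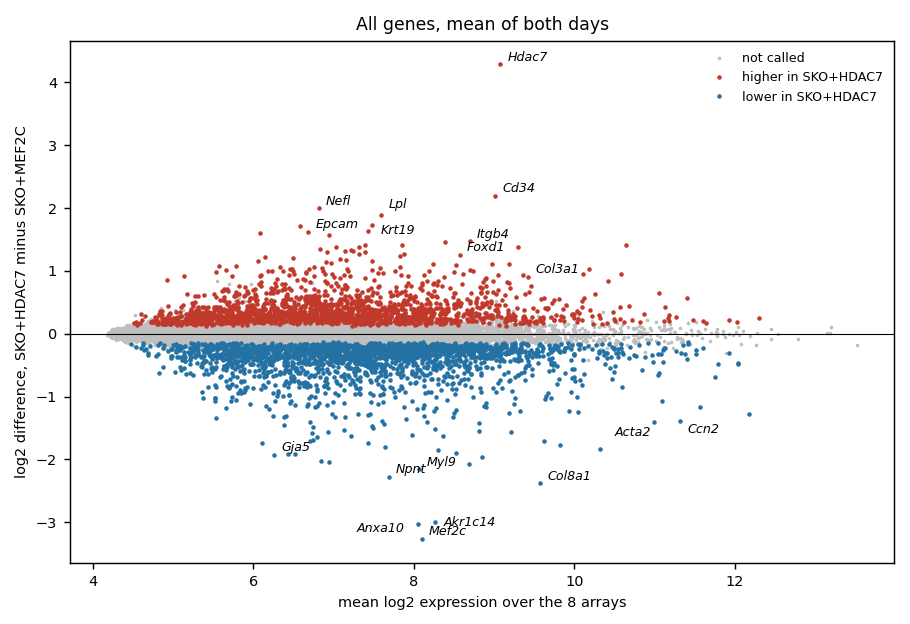
Each point is 1 of 19935 genes: mean log2 expression over the 8 arrays (x) against the log2 difference, SKO+HDAC7 minus SKO+MEF2C, as the mean of both days (y). Red and blue points passed the test as higher (1773) and lower (2159) in SKO+HDAC7, and grey points did not; differences of 2 or more are mostly on the lower side.

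Among the genes highest in SKO+HDAC7 were surface proteins, neuropeptide genes and epithelial genes. Cd34, a sialomucin of haematopoietic progenitors, endothelium and some fibroblasts, stood at 9.43 and 9.64 at day 6 and 10.57 and 10.78 at day 10 in SKO+HDAC7, against 7.14 and 7.16 at day 6 and 8.69 and 8.68 at day 10 in SKO+MEF2C. Its values were higher at day 10 than at day 6 in both groups, and the difference was 2.19 ± 0.09, or 4.56-fold (limma, adjusted p = 1.01e-06). The groups did not overlap within a day, which was a condition for the 15 genes leading in each direction. Nefl, the neurofilament light chain, followed with 1.99 ± 0.15 (adjusted p = 2.38e-05), and Lpl, the lipoprotein lipase, with 1.89 ± 0.13 (adjusted p = 1.7e-05). Itgb4, which pairs with integrin alpha 6 in hemidesmosomes, was higher by 1.47 ± 0.06: it stood at 9.31 to 9.66 in SKO+HDAC7 and 7.77 to 8.16 in SKO+MEF2C. Npy, neuropeptide Y, and its receptor gene Npy2r were both higher, by 1.56 ± 0.09 and 1.60 ± 0.11 (limma, adjusted p = 6.28e-06 and 1.33e-05). Also among the 15 highest were Dgka (a diacylglycerol kinase, 1.46), Aldh3a1 (an aldehyde dehydrogenase, 1.42), Ccl2 (a monocyte chemokine, 1.42), Cstdc2 (1.72), Slc7a3 (a cationic amino acid transporter, 1.64) and AW551984 (1.41).

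The lower end reached further. Anxa10, an annexin, stood at 7.98 and 7.96 at day 6 and 5.09 and 5.12 at day 10 in SKO+HDAC7, against 10.04 and 9.89 at day 6 and 9.11 and 9.24 at day 10 in SKO+MEF2C. The difference over both days was -3.04 ± 0.34 (limma, adjusted p = 0.000283), and the day 10 values of SKO+HDAC7 lay below the median gene. Akr1c14, an aldo-keto reductase that handles steroids, was nearly as far apart and steadier: it stood at 6.97, 6.85, 6.51 and 6.74 in SKO+HDAC7 and at 9.83, 9.79, 9.69 and 9.73 in SKO+MEF2C. Its difference was -2.99 ± 0.07, or 7.97-fold (limma, adjusted p = 2.88e-08); cross-hybridisation with related Akr1c genes was not checked, so this value is uncertain. Npnt (nephronectin, a matrix ligand of integrin alpha 8) was lower, at -2.28 ± 0.08, and Itga8, that integrin subunit, at -1.33 ± 0.11, so that ligand and receptor genes were both lower in SKO+HDAC7 (limma, adjusted p = 2.8e-07 and 4.13e-05). Gja5 (connexin 40), Mctp1, C1qtnf3, Aldh1a7 and Fabp3 (the heart fatty acid binding protein) were lower, at -1.91 to -2.04, and their means in SKO+HDAC7 lay below the median gene. Gja5 stood at 5.25, 5.12, 5.44 and 5.37 in SKO+HDAC7 and at 7.13, 7.0, 7.43 and 7.33 in SKO+MEF2C.

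The smooth muscle contractile list had the largest share of lower genes among the lists described. Of 25 measured members, 18 were lower and 0 higher in SKO+HDAC7, where 10.8% of all genes were lower; the list's median difference was -0.52, beside 0.01 for all genes. Myl9, the regulatory light chain of smooth muscle and non-muscle myosin, stood at 7.50 and 7.67 at day 6 and 6.38 and 6.38 at day 10 in SKO+HDAC7, against 9.59 and 9.44 at day 6 and 8.67 and 8.87 at day 10 in SKO+MEF2C. The difference was -2.16 ± 0.10, or 4.47-fold (limma, adjusted p = 2.05e-06). Tagln (transgelin, an actin-binding protein) stood at 8.54, 8.56, 6.71 and 6.82 in SKO+HDAC7 and at 10.14, 10.13, 9.27 and 9.37 in SKO+MEF2C, a difference of -2.07 ± 0.17. Cnn1 (calponin 1) was lower, at -1.71 ± 0.07, and Acta2 (alpha smooth muscle actin) at -1.40 ± 0.14. Each of these genes was lower in every SKO+HDAC7 array than in any SKO+MEF2C array of its day. Srf, which encodes the serum response factor, differed by -0.20, and Myocd, its smooth muscle coactivator, by 0.09, which did not pass the test (limma, adjusted p = 0.029 and 0.23; both were named after their values were seen). Counts of lower members ran from 16 to 18 when each array was left out.

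The sequences before Acta2 and Myl9 are shown because both genes were in this group and both hold the CArG box, the element that serum response factor binds. It was searched as CC, then 6 letters of which at most 1 is not A or T, then GG, which reads the same way on both strands. The bases shown are the 250 before the start of transcription, 5′ to 3′ on the gene's own strand, from RefSeq on GRCm38.p6, with the boxes in capitals. In Acta2 the boxes start at -84 and -34, and in Myl9 at -161 and -99 from the start.
Acta2 (chr19:34255374-34255623, minus strand): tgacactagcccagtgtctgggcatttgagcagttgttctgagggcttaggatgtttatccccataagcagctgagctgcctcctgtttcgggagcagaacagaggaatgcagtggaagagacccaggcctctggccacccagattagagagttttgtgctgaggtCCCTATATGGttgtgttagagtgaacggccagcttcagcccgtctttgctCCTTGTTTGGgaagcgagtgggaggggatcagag
Myl9 (chr2:156775214-156775463, plus strand): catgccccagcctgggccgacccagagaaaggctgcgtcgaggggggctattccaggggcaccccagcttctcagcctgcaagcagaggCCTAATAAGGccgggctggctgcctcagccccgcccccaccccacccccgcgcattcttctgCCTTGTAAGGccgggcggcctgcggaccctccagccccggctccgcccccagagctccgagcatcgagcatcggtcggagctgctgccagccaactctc
In windows of 300 bases (250 before to 50 after each start), 7 of 27 windows of the contractile list held a CArG box (25.9%), beside 1758 of 19175 windows of all tested genes (9.17%). The genes with a box included Srf and Vcl but not Cnn1, and no window was found for Tagln. Here and below, a list's windows are those of all its measured members, called or not, so its share does not depend on the comparison. A MEF2 motif was found in 3 of the 27 (11.1%) and in 2.52% of all windows. Over all called genes the box was about as frequent as in the whole set, in 8.28% of windows of the higher ones and 9.05% of windows of the lower ones. Among genes that differed by at least 1, it was in 1 of 53 windows of the higher ones (1.89%) and 16 of 123 windows of the lower ones (13.0%), which are few windows. The striated muscle and the replication lists also held the CArG box more often than all genes (22.5% and 20.0% of windows). The YAP partner TEAD's site, GGAATG on either strand, was in 29.6% of the contractile windows and 13.2% of all windows. A match describes these letters, and no binding was measured.

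Genes that TGF-beta and the YAP coactivator are known to induce were mostly lower too: 13 of 20 measured members were lower and 2 higher in SKO+HDAC7, with a median difference of -0.38. Ccn2 (connective tissue growth factor) stood at 10.86, 10.78, 10.51 and 10.38 in SKO+HDAC7 and at 11.99, 11.90, 12.06 and 12.11 in SKO+MEF2C, without overlap (-1.38 ± 0.10, limma adjusted p = 1.9e-05). F3 (tissue factor) was lower, at -1.81 ± 0.09, Pmepa1 (an inhibitor of TGF-beta signalling that TGF-beta itself induces) at -0.81 ± 0.07 and Ankrd1 at -0.69 ± 0.07. The members that were higher were Axl, a receptor tyrosine kinase, at 0.27 ± 0.05, and Edn1 (endothelin 1), whose 0.19 ± 0.05 did not pass without 1 array in 6 of 8 such fits.

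Of the ligands, latency proteins and receptors of the TGF-beta family, 8 of 23 were lower and 5 higher. The ligand gene Tgfb3 stood at 7.13, 7.02, 6.70 and 6.56 in SKO+HDAC7 and at 8.05, 7.88, 7.65 and 7.67 in SKO+MEF2C (-0.96 ± 0.06, limma adjusted p = 9.52e-06). Tgfb2 was lower, at -0.76 ± 0.08, and Inhba, the activin A subunit, at -0.78 ± 0.08. Ltbp2, of the latent TGF-beta binding proteins, was lower, at -1.39 ± 0.17. The higher members included receptors (Tgfbr2 at 0.24 ± 0.05 and Acvrl1 at 0.26 ± 0.06), Fst, the activin antagonist follistatin (0.53 ± 0.11), and Lefty1, an antagonist of Nodal (0.25 ± 0.05, at levels of 4.86 to 5.34, below the median gene). The fifth, Acvr1b, lost its call in 4 of the 8 fits that left out an array.

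BMP and Wnt genes ran the same way. Of 27 BMP members 12 were lower and 1 higher (median -0.16), and of 25 Wnt members 12 were lower and 0 higher (median -0.19). Of all genes, 10.8% were lower and 8.89% higher. The higher BMP count was 1 or 2 when an array was left out. Id3, a direct BMP target that blocks helix-loop-helix factors, stood at 7.23 and 7.34 at day 6 and 6.74 and 6.64 at day 10 in SKO+HDAC7, against 8.33 and 8.18 at day 6 and 7.87 and 8.04 at day 10 in SKO+MEF2C (-1.12 ± 0.08, limma adjusted p = 1.51e-05). The ligand Bmp2 was lower, at -1.05 ± 0.12, and the receptor Bmpr2 at -0.58 ± 0.11, while the ligand Bmp6 was the member that was higher (0.60 ± 0.05). In the Wnt list, Lgr5 (a receptor for R-spondins) was lower, at -1.65 ± 0.16, the antagonist Dkk2 at -1.14 ± 0.20, the ligand Wnt2 at -0.77 ± 0.08 and the receptor Fzd7 at -0.59 ± 0.07. Ligands, receptors and antagonists were all among the lower genes.

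The extracellular matrix was split by gene. Of 23 collagen genes, 12 were lower and 1 higher; of 37 other matrix and crosslinking genes, 21 were lower and 6 higher (medians -0.23 and -0.42). Col8a1, a short-chain collagen of vessel walls, stood at 8.92, 8.91, 7.74 and 7.96 in SKO+HDAC7 and at 10.79, 10.57, 10.81 and 10.89 in SKO+MEF2C, a difference of -2.38 ± 0.21 or 5.21-fold (limma, adjusted p = 7.05e-05). Col12a1 (-1.62 ± 0.22), Col5a2 (-1.55 ± 0.05) and Col11a1 (-1.51 ± 0.19) came next. The collagen that was higher was Col3a1: it stood at 9.48, 9.50, 10.29 and 10.22 in SKO+HDAC7 and at 8.77, 8.91, 9.17 and 9.03 in SKO+MEF2C, without overlap (0.90 ± 0.10, limma adjusted p = 0.000201). Lox, the lysyl oxidase that crosslinks collagen and elastin, was lower, at -1.96 ± 0.14, Postn (periostin) at -1.86 ± 0.20 and Mgp (matrix Gla protein) at -1.56 ± 0.23. Against that, the small leucine-rich proteoglycans Dcn (decorin, 0.73 ± 0.08) and Lum (lumican, 0.68 ± 0.10, with its SKO+MEF2C mean below the median gene) were higher. So were the laminin chains Lama1 (0.64 ± 0.06) and Lamb3 (0.50 ± 0.09) and Fbln1 (0.27 ± 0.06). Fras1 was the sixth and lost its call in 4 of the 8 fits without 1 array.

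Matrix proteases and their inhibitors gave 11 lower and 1 higher of 23, led by Adamts1 (-1.22 ± 0.15), Serpinf1 (-0.93 ± 0.10), Adamts5 (-0.67 ± 0.11) and Plau, the urokinase gene (-0.57 ± 0.08); the higher one was the inhibitor Timp3 (0.27 ± 0.06). Of 19 integrin genes 8 were lower and 3 higher, with Itga1, a collagen receptor subunit (-1.12 ± 0.07), and Itgav (-0.72 ± 0.12) beside Itga8, and with Itgb4 as the large exception. Itga4 and Itga6 were the other higher ones, and each lost its call in 4 of the 8 fits that left out an array.

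Mesenchymal identity genes did not move as a block: 14 of 29 were lower and 5 higher (median -0.15). Thy1, a fibroblast surface glycoprotein, stood at 7.85, 7.80, 6.80 and 7.0 in SKO+HDAC7 and at 8.35, 8.39, 8.11 and 8.22 in SKO+MEF2C (-0.90 ± 0.13, limma adjusted p = 0.00116). The homeobox genes Prrx2 (-0.87 ± 0.10) and Meox2 (-0.76 ± 0.14) were lower as well. Foxd1, a forkhead factor of stromal progenitors, went the other way with 8.87, 8.84, 9.48 and 9.60 in SKO+HDAC7 and 7.49, 7.73, 8.16 and 8.39 in SKO+MEF2C (1.26 ± 0.07, limma adjusted p = 4.48e-06). Zeb2, a repressor of E-cadherin, the N-cadherin gene Cdh2 and the PDGF receptor gene Pdgfra were also higher, by 0.34 ± 0.06, 0.26 ± 0.04 and 0.29 ± 0.06.

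**Figure D3:**
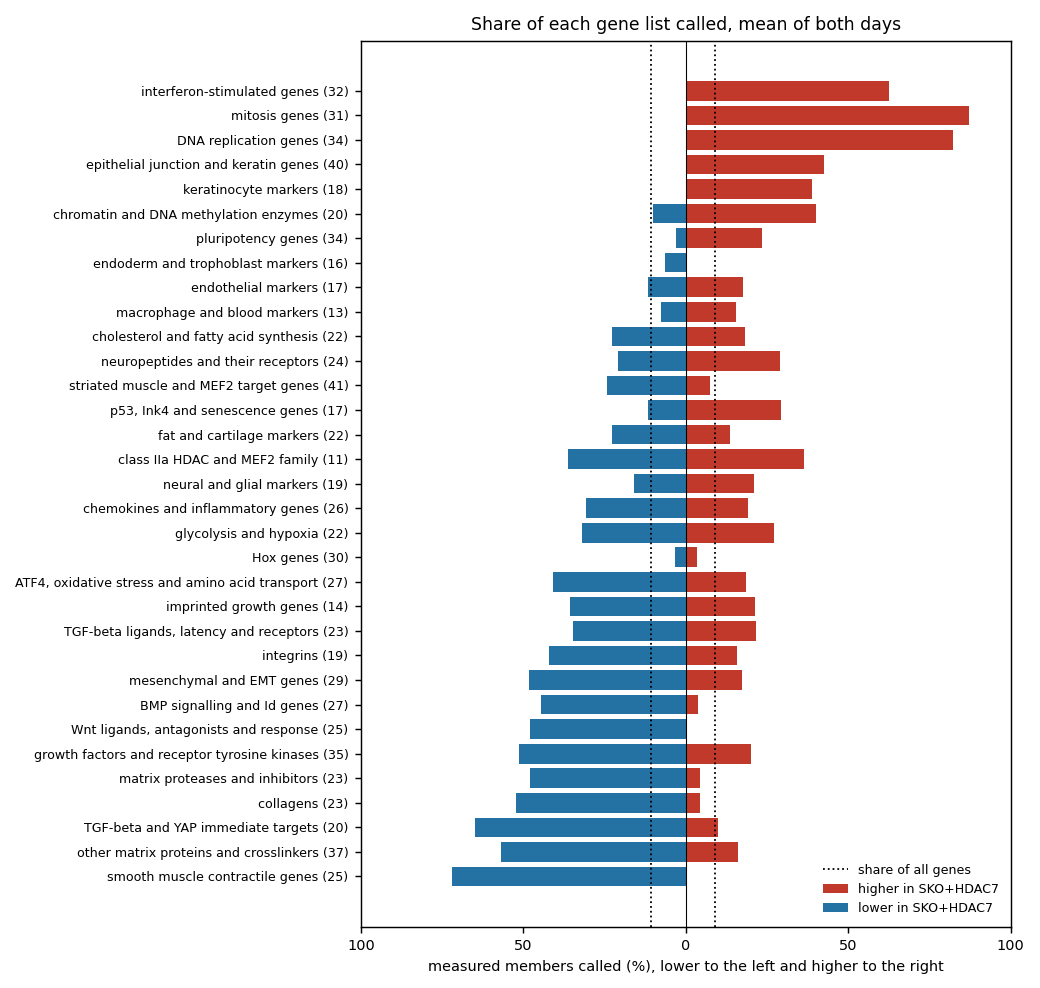
Share of measured members called higher (red, to the right) and lower (blue, to the left) in SKO+HDAC7 for 33 gene lists, as the mean of both days, sorted by the list's median difference, with the number measured in parentheses; dotted lines give the shares of all genes, 8.89% higher and 10.8% lower. Contractile, matrix and TGF-beta or YAP target lists lie at the bottom with mostly lower members, and replication, mitosis and interferon lists at the top with 0 lower members.

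Most proliferation genes were higher in SKO+HDAC7. Of 34 DNA replication genes, 28 were higher and 0 lower, and of 31 mitosis genes 27 were higher and 0 lower, where 8.89% of all genes were higher. The differences were modest, with medians of 0.37 and 0.39 over both days; by day, the replication median was 0.29 at day 6 and 0.50 at day 10, and the mitosis median 0.30 and 0.44. Mki67, the proliferation marker Ki-67, stood at 8.73, 8.83, 8.87 and 8.81 in SKO+HDAC7 and at 8.12, 8.01, 8.15 and 8.06 in SKO+MEF2C, without overlap (0.73 ± 0.05, limma adjusted p = 1.2e-05). Uhrf1, which guides Dnmt1 to replicated DNA, stood at 8.48, 8.69, 8.81 and 8.69 in SKO+HDAC7 and at 7.89, 7.87, 7.88 and 7.95 in SKO+MEF2C (0.77 ± 0.06, limma adjusted p = 3.25e-05). Mcm2 of the replicative helicase (0.58 ± 0.06), the sliding clamp gene Pcna (0.58 ± 0.05), the ligase gene Lig1 (0.57 ± 0.05), the spindle checkpoint kinase gene Bub1b (0.61 ± 0.05), the mitotic transcription factor gene Foxm1 (0.55 ± 0.05) and the cytokinesis gene Ect2 (0.54 ± 0.05) were similar in size. With 1 array left out at a time, 23 to 26 replication and 25 to 28 mitosis genes were called.

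E2F factors drive the replication genes in S phase, and the window before Uhrf1 is shown because it holds a consensus site for them. The motif was searched as TTTCGCGC and TTTGGCGC on both strands. Of the 2 starts that RefSeq lists for Uhrf1, the 250 bases shown precede the one with a site, which begins at -185.
Uhrf1 (chr17:56304063-56304312, plus strand): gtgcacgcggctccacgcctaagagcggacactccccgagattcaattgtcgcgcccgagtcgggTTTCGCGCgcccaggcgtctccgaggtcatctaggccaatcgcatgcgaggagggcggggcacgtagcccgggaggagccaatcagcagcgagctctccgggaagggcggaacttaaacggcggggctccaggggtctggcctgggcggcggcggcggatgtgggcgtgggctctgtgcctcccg
Such a site was found in 11 of 35 windows of the replication list (31.4%) and in 216 of 19175 windows of all tested genes (1.13%). The list share counts all measured members, called or not, and describes the list rather than the difference between the groups. Among all genes called over both days it was in 2.70% of windows of the higher ones and 0.453% of windows of the lower ones, but in 0 of the 53 windows of genes higher by at least 1 and 0 of the 123 windows of genes lower by at least 1. In the mitosis list it was in 1 of 27 windows (3.70%).

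Cell cycle inhibitors did not all follow. Cdkn2b (p15), which TGF-beta induces, was lower at 7.21, 7.25, 6.72 and 6.77 in SKO+HDAC7 against 7.93, 7.87, 7.42 and 7.50 in SKO+MEF2C (-0.69 ± 0.04, limma adjusted p = 9.32e-06). Cdkn1c (p57) was higher by 0.84 ± 0.05 and Cdkn1b (p27) by 0.35 ± 0.06 (limma, adjusted p = 1.2e-05 and 0.00426). In all, 5 of 17 p53, Ink4 and senescence genes were higher and 2 lower, the other being the cyclin G1 gene Ccng1 (-0.26 ± 0.05). The lower count is near the share of all genes, 10.8%. Of 20 chromatin and DNA methylation enzymes, 8 were higher and 2 lower: Hdac6, a cytoplasmic deacetylase of tubulin, by 0.77 ± 0.07, Tet2 by 0.56 ± 0.05, the maintenance methyltransferase gene Dnmt1 by 0.55 ± 0.06 and Hdac2 by 0.41 ± 0.09, with Hdac8 (-0.24 ± 0.06) and Sirt1 (-0.32 ± 0.06) lower.

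Interferon-stimulated genes, the antiviral effector genes that type I interferon induces, were higher in SKO+HDAC7 in 20 of 32 members and lower in 0, with the highest median of the lists at 0.47. Of the 32 genes, 11 lay below the median gene in SKO+HDAC7 and 17 in SKO+MEF2C. Oasl2 stood at 7.03 and 7.15 at day 6 and 8.27 and 8.27 at day 10 in SKO+HDAC7, against 6.28 and 6.51 at day 6 and 6.95 and 6.99 at day 10 in SKO+MEF2C. The groups did not overlap within a day, and the day 6 arrays of SKO+HDAC7 lay just above the day 10 arrays of SKO+MEF2C (0.99 ± 0.11, limma adjusted p = 0.00031). Oas2, an RNA-sensing oligoadenylate synthetase, was higher by 1.00 ± 0.14, Rtp4 by 0.99 ± 0.11 and Parp14 by 0.72 ± 0.10. The window before Ifit1, an effector that binds viral RNA, is shown for its 2 copies of the core of the interferon-stimulated response element, searched on both strands as GAAA, any 2 bases, GAAA; Ifit1 was picked for this after its values were seen (0.50 in SKO+HDAC7 minus SKO+MEF2C, limma adjusted p = 0.00371). The copies, which begin at -104 and -85, read on the other strand.
Ifit1 (chr19:34640639-34640888, plus strand): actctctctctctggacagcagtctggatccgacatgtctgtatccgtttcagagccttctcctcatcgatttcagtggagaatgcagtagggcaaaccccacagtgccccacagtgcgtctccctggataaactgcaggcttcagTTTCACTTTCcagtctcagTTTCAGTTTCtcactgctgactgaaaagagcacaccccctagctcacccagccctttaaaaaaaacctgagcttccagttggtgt
The core was in 13 of 27 windows of the interferon list (48.1%) and in 3.27% of all windows. This share too counts all measured members, called or not. Chemokine and inflammatory genes were split, with 5 higher and 8 lower of 26. The monocyte chemokines Ccl2 (8.25, 8.43, 8.75 and 8.81 in SKO+HDAC7, against 7.11, 7.17, 7.12 and 7.16 in SKO+MEF2C) and Ccl7 (0.82 ± 0.05) were higher, as were Cxcl12, Cxcl16 and the NF-kappaB inhibitor gene Tnfaip3 (0.46 to 0.55). The adhesion molecule gene Vcam1 (-1.22 ± 0.17) and Il1rn, the interleukin-1 receptor antagonist (-1.12 ± 0.19), were lower.

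Epithelial junction and keratin genes were higher in 17 of 40 members and lower in 0 (median 0.19). Of these 40 genes, 22 lay below the median gene in SKO+HDAC7 and 27 in SKO+MEF2C, so lower differences among them may be understated. Krt19, a simple-epithelium keratin, stood at 7.58 and 7.76 at day 6 and 8.99 and 9.04 at day 10 in SKO+HDAC7, against 6.51 and 6.45 at day 6 and 6.71 and 6.76 at day 10 in SKO+MEF2C (1.74 ± 0.19, limma adjusted p = 0.000203). Epcam, an epithelial adhesion molecule, stood at 6.05 and 6.0 at day 6 and 9.02 and 8.93 at day 10 in SKO+HDAC7, against 5.20 and 5.34 at day 6 and 6.62 and 6.34 at day 10 in SKO+MEF2C (1.62 ± 0.29, limma adjusted p = 0.00403). Both genes had higher values at day 10 than at day 6 in each group, and the day 10 arrays of SKO+HDAC7 were the highest. Pkp1, a desmosomal plakophilin, differed by 1.38 at day 6 and 1.30 at day 10 (1.34 ± 0.05 over both), and the Ets factor gene Ehf was higher by 1.07 ± 0.20. E-cadherin, Cdh1, named after its values were seen, stood at 6.37, 6.32, 7.79 and 7.41 in SKO+HDAC7 and at 5.74, 5.98, 6.07 and 5.99 in SKO+MEF2C (1.03 ± 0.20, limma adjusted p = 0.0055). The count fell to 10 without the second SKO+MEF2C array of day 10 and to 11 without either SKO+HDAC7 array of day 10, and ran from 12 to 17 without any other array.

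Keratinocyte markers were higher beside these genes: 7 of 18 were higher and 0 lower, and their summed level, as log2, was 10.81 to 11.05 in SKO+HDAC7 and 10.74 to 10.80 in SKO+MEF2C. Krt14 was the furthest apart (6.32, 6.53, 7.27 and 7.35 in SKO+HDAC7, against 5.60, 5.66, 6.0 and 5.93 in SKO+MEF2C), with Krt16 and Krt6a higher by 0.67 and 0.61. Trp63, the keratinocyte master regulator, lay below the median gene in both groups at 5.59 and 5.60. Of these 18 markers, 12 lay below it in SKO+HDAC7 and 15 in SKO+MEF2C; the part of such cells in the epithelial result was not tested. The count of 7 became 4 or 5 without any 1 of the 4 day 10 arrays, and 2 where only genes above the median level were tested.

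Genes of the pluripotency list, 26 of 34 of which lay below the median gene in each group, were higher in 8 and lower in 1. The higher ones were led by Slc7a3, which stood at 6.86 and 6.79 at day 6 and 9.61 and 9.76 at day 10 in SKO+HDAC7, against 6.05 and 6.11 at day 6 and 7.09 and 7.21 at day 10 in SKO+MEF2C (1.64 ± 0.30, limma adjusted p = 0.00411). Trh (the thyrotropin-releasing hormone gene, expressed in mouse embryonic stem cells) was higher by 1.10 ± 0.11, Tfcp2l1, a factor of the naive state, by 0.95 ± 0.12, and Nr0b1 (Dax1) by 0.92 ± 0.21, a call that did not hold under an intensity trend with a robust prior. Nr0b1 was at 4.95 and 4.94 at day 6 and 6.20 and 6.31 at day 10 in SKO+HDAC7 and at 4.56 to 4.85 in SKO+MEF2C, so most of these arrays lay below the median gene. Klf5 was lower, at -0.25 ± 0.05. Core genes of the endogenous network, named after their values were seen, did not pass over both days: Nanog differed by 0.10 (adjusted p = 0.439), Zfp42 (Rex1) by 0.10 (adjusted p = 0.441) and Esrrb by 0.11 (adjusted p = 0.159), and all 3 lay below the median gene.

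Relatives of the transduced pair also differed. Of 11 other class IIa deacetylase, MEF2 and signalling genes measured, 4 were higher and 4 lower; 2 or 3 were higher in each fit that left out an array. The class IIa genes Hdac5 (6.53, 6.77, 6.55 and 6.60 in SKO+HDAC7, against 7.10, 7.20, 7.21 and 7.34 in SKO+MEF2C) and Hdac9 (-0.41 ± 0.08) were lower (limma, adjusted p = 0.000347 and 0.00473). So was Camk2d (-0.60 ± 0.06), a calcium-dependent kinase whose family phosphorylates class IIa deacetylases. Sik1, a salt-inducible kinase that does the same, was higher by 0.53 ± 0.08, and Mef2a, named after its values were seen, by 0.37. Of 41 striated muscle and MEF2 target genes, 31 lay below the median gene in SKO+HDAC7 and 28 in SKO+MEF2C. In this list 10 were lower, 3 were higher and the others did not pass the test (median -0.0020). The lower ones were led by Fabp3 (5.67, 5.68, 5.35 and 5.19 in SKO+HDAC7, against 7.66, 7.50, 7.12 and 7.27 in SKO+MEF2C), Eno3, the muscle enolase (-0.95 ± 0.12), and Tnnt2, cardiac troponin T (-0.76 ± 0.09). Nppb, which encodes brain natriuretic peptide, went the other way at 8.14, 7.86, 7.97 and 8.04 in SKO+HDAC7 and 6.43, 6.63, 6.61 and 6.82 in SKO+MEF2C (1.38 ± 0.08, limma adjusted p = 7.78e-06). Jun, which encodes a subunit of AP-1 and is a known MEF2 target, was also higher (0.74 ± 0.07); the third, Myod1, lost its call in 6 of the 8 fits without 1 array. The MEF2 motif was in 12.5% of the promoter windows of this list.

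Among growth factors and receptor tyrosine kinases, 18 of 35 genes were lower and 7 higher. Igfbp7, an insulin-like growth factor binding protein of the matrix, stood at 9.55, 9.49, 8.34 and 8.36 in SKO+HDAC7 and at 10.80, 10.79, 10.58 and 10.66 in SKO+MEF2C (-1.77 ± 0.17, limma adjusted p = 9.81e-05). The ligand genes Fgf18 (-1.61 ± 0.12), Pdgfc (-1.32 ± 0.11) and Hbegf (-1.18 ± 0.06) were lower too. Higher were the heparin-binding factor genes Ptn (0.97 ± 0.08) and Mdk (0.47 ± 0.09), Erbb3, a receptor for neuregulins (0.91 ± 0.16), and Igfbp4 (0.44 ± 0.07). The other three, Ereg, Vegfa and Erbb2, lost their calls in 3, 6 and 5 of the 8 fits without 1 array.

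Neuropeptide and receptor genes stood out by opposite calls within a family. Npy and Npy2r were higher in SKO+HDAC7, while Npy1r, another receptor for the same peptide, was lower, at -0.93 ± 0.05 at levels of 4.84 to 4.95 in SKO+HDAC7 and 5.72 to 5.95 in SKO+MEF2C, below the median gene on all 8 arrays. The tachykinin receptor genes Tacr3 (-1.35 ± 0.05) and Tacr1 (-1.11 ± 0.07) and the enkephalin precursor gene Penk (-1.05 ± 0.14) were lower. In all, 7 of 24 were higher and 5 lower.

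Metabolic lists were split, where 8.89% of all genes were higher and 10.8% lower. In glycolysis and hypoxia, 6 of 22 were higher (3 to 5 when an array was left out), among them the glucose transporter gene Slc2a3 (0.94 ± 0.09) and the oxygen sensor gene Egln3 (0.75 ± 0.13), and 7 were lower, led by Adm, adrenomedullin (-0.97 ± 0.11). Of 27 genes of the ATF4 and oxidative stress list, 11 were lower (7 without the second SKO+MEF2C array of day 10, and 8 or 9 without any other array), such as the serine synthesis gene Phgdh (-0.56 ± 0.08) and the quinone reductase gene Nqo1 (-0.55 ± 0.08), and 5 were higher, the metallothionein genes Mt2 (0.65 ± 0.06) and Mt1 (0.52 ± 0.05) and the amino acid transporter genes Slc7a3, Slc1a5 and Slc7a11. Cholesterol and fatty acid synthesis genes gave 4 higher (3 to 6 when an array was left out, 7 after quantile normalization) and 5 lower (2 to 4, and 3) of 22, with differences of at most 0.41 in size among the 4 named: Fads1 (0.41 ± 0.09), Elovl6 (0.35 ± 0.06), Acly (-0.28 ± 0.04) and Srebf1 (0.27 ± 0.05). Of 14 imprinted growth genes, 3 were higher and 5 lower, with Peg10 at 0.84 ± 0.15 and Mest at -0.96 ± 0.14. Hox genes gave 1 higher and 1 lower of 30, Hoxd4 and Hoxc8, whose calls were lost in 7 and 5 of the 8 fits without 1 array.

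Markers of other cell types were checked list by list, where 8.89% of all genes were higher and 10.8% lower. Several of the counts below, of few genes each, are not far from those shares. Of 17 endothelial markers 3 were higher and 2 lower: Cd34, the receptor gene Tek (7.92, 7.85, 9.08 and 9.21 in SKO+HDAC7, against 7.01, 6.82, 7.57 and 7.58 in SKO+MEF2C) and Esm1 (1.02 ± 0.11) were higher, and the receptor gene Flt1 (-0.25 ± 0.04) and Erg, which lost its call in 6 of the 8 fits without 1 array, were lower. Their summed level was 10.74 to 11.56 in SKO+HDAC7 and 9.90 to 10.32 in SKO+MEF2C, but the defining genes Pecam1, Cdh5 and Kdr lay between 4.92 and 5.47 in both group means, below the median gene, and did not pass the test. Macrophage and blood markers had 11 of 13 members below the median gene in both groups, but their summed level was 9.531 to 9.605 in SKO+HDAC7 and 9.238 to 9.432 in SKO+MEF2C, without overlap. Cd68, a lysosomal glycoprotein of macrophages, was higher by 0.57 ± 0.10 and Laptm5, a lysosomal membrane protein of blood cells, by 0.47 ± 0.08 (limma, adjusted p = 0.0043 and 0.0026). Cd14 was lower, at -0.17 ± 0.05, a call lost in all 8 fits without 1 array. Of 19 neural and glial markers 4 were higher (2 to 5 when an array was left out) and 3 lower (1 or 2 in every such fit), with Nefl (8.01, 8.07, 7.58 and 7.58 in SKO+HDAC7, against 5.47, 5.93, 5.82 and 6.04 in SKO+MEF2C) and the synaptic gene Syt1 (-0.81 ± 0.07) on opposite sides. Fat and cartilage markers gave 3 higher and 5 lower of 22: Lpl, the phosphatase gene Alpl (0.94 ± 0.07) and the lipid droplet gene Plin2 (0.49 ± 0.04) were higher, and Cd36, the fatty acid translocase (-1.69 ± 0.24), and Acan, aggrecan (-0.90 ± 0.05), lower. Endoderm and trophoblast markers gave 0 higher and 1 lower of 16, the adaptor gene Dab2 (-0.62 ± 0.09). The summed level of fibroblast markers was as low as 13.67 in SKO+HDAC7, whose 4 arrays all lay below the 14.02 to 14.12 of SKO+MEF2C. The single fibroblast markers were split, so the sum does not stand for all of them. Col1a1, Col1a2, Thy1, Pdgfrb and S100a4 were lower in SKO+HDAC7, at -0.398 to -0.9. Pdgfra, Lum and Dcn were higher, by 0.294 to 0.735, and Vim and Fap did not pass the test. The part of other cells in the results was not tested.

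The days were then taken apart. At day 6, 1383 genes (6.94%) were higher and 1664 (8.35%) lower in SKO+HDAC7; at day 10, 1697 (8.51%) were higher and 1906 (9.56%) lower. The 702 genes higher on both days make up 50.8% of the higher calls of day 6 and 41.4% of those of day 10, the 1002 genes lower on both days 60.2% and 52.6%, and 21 genes were called in opposite directions. The day 6 count fell to 1625 without the second SKO+MEF2C array of day 6, to 1810 without the first and to 1816 without the first SKO+HDAC7 array of that day. The SD of the differences over all genes was 0.231 at day 6 and 0.284 at day 10, and the differences of the days correlated across genes with r = 0.702, a description over 19935 genes that are not independent.

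The change between days itself was called for 584 genes (2.93%), with 459 of them (78.6%) further apart at day 10 and 125 at day 6. In 271 (1.36%) the difference was more positive at day 10 and in 313 (1.57%) more negative. This count fell to 224 to 324 when any 1 of 6 arrays was left out, and was 435 without the first SKO+HDAC7 array of day 10 and 479 without the second SKO+HDAC7 array of day 6. Epcam differed by 0.75 at day 6 and 2.50 at day 10, a change of 1.74 (limma, adjusted p = 0.000275), and Krt19 by 1.19 and 2.28. Slc17a6, a vesicular glutamate transporter gene, stood at 4.85 and 5.0 at day 6 and 6.97 and 7.03 at day 10 in SKO+HDAC7 and at 5.09, 5.10, 5.13 and 5.18 in SKO+MEF2C, so that 2 of the 8 arrays carried the difference (change 2.01, limma adjusted p = 3.7e-05). Gbp4, an interferon-inducible GTPase gene, had the same shape with 5.43, 5.38, 7.24 and 7.41 in SKO+HDAC7 and 5.51, 5.69, 5.53 and 5.56 in SKO+MEF2C. On the other side, Tslp, an epithelial cytokine gene, differed by 1.55 at day 6 and 0.06 at day 10, of which the day 10 value did not pass the test: it stood at 7.97 and 8.15 at day 6 and 6.13 and 6.29 at day 10 in SKO+HDAC7, against 6.46, 6.55, 6.15 and 6.14 in SKO+MEF2C (change -1.49, limma adjusted p = 0.000275). Anxa10, with -2.0 at day 6 and -4.07 at day 10, had the largest negative change of the genes named.

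**Figure D4:**
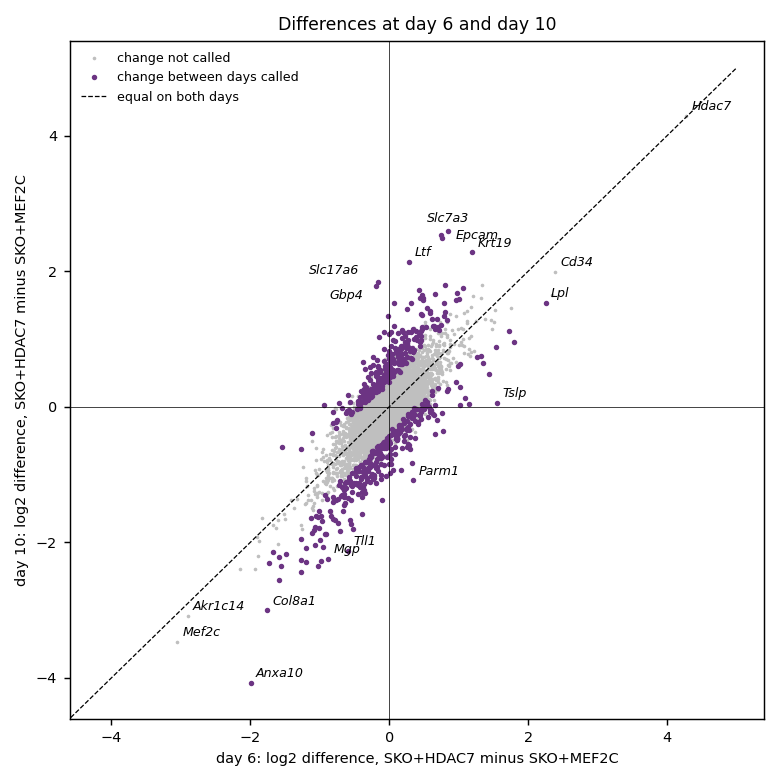
Log2 difference, SKO+HDAC7 minus SKO+MEF2C, at day 6 (x) and day 10 (y) for 19935 genes; purple points are the 584 genes whose change between days passed the test, and the dashed line marks equal differences. Hdac7 and Mef2c lie close to the line, while Epcam, Slc7a3, Krt19 and Anxa10 lie further from 0 at day 10 than at day 6.

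The counts of members called on each day are given here for 6 of the lists. Of all genes, 6.94% were higher and 8.35% lower at day 6, and 8.51% and 9.56% at day 10. The change was called as more positive at day 10 in 1.36% of all genes and as more negative in 1.57%. A count of 1 changed gene in a list cannot be told from those shares. Of the epithelial genes, 7 were higher at day 6 and 24 at day 10, and 10 of the 40 had a called change, all toward a larger difference at day 10 (6 to 8 when an array was left out). The day 10 count was 16 without the first SKO+HDAC7 or the second SKO+MEF2C array of that day and 17 to 24 without any other. Where only genes above the median level were tested, which leaves fewer genes, 11 epithelial genes were higher at day 10 and 11 over both days. Of the interferon-stimulated genes, 17 were higher at day 6 and 26 at day 10, and 7 of 32 had a called change. The day 6 count fell as low as 10 when an array was left out, and the count of changes was 2 without the second SKO+HDAC7 array of day 10, 3 to 5 without 6 of the others and 9 without the first SKO+HDAC7 array of day 10. The contractile genes were lower in 15 at day 6 and 17 at day 10 with 4 called changes, and the TGF-beta and YAP targets in 12 on each day with 1 called change in each direction. Those changes were 0 and 0 in 6 of the 8 fits without 1 array, and both held without the second SKO+HDAC7 array of day 6. Replication genes were higher in 19 at day 6 and 27 at day 10, with 1 called change (0 to 2 when an array was left out), and mitosis genes in 20 and 29, with 0 called changes. The replication count at day 6 was 10 without the second SKO+HDAC7 array of that day or without either SKO+MEF2C array of that day. Other lists held called changes too, most of all the other matrix and crosslinking genes, with 13 of 37 more negative and 3 more positive at day 10. Matrix proteases (7 of 23), integrins (6 of 19) and mesenchymal genes (6 of 29) had only negative called changes, and pluripotency genes (6 of 34) only positive ones. Apart from the matrix genes, these counts were smaller in every fit that left out an array. Whether the lists differ from each other in their change was not tested.

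**Figure D5:**
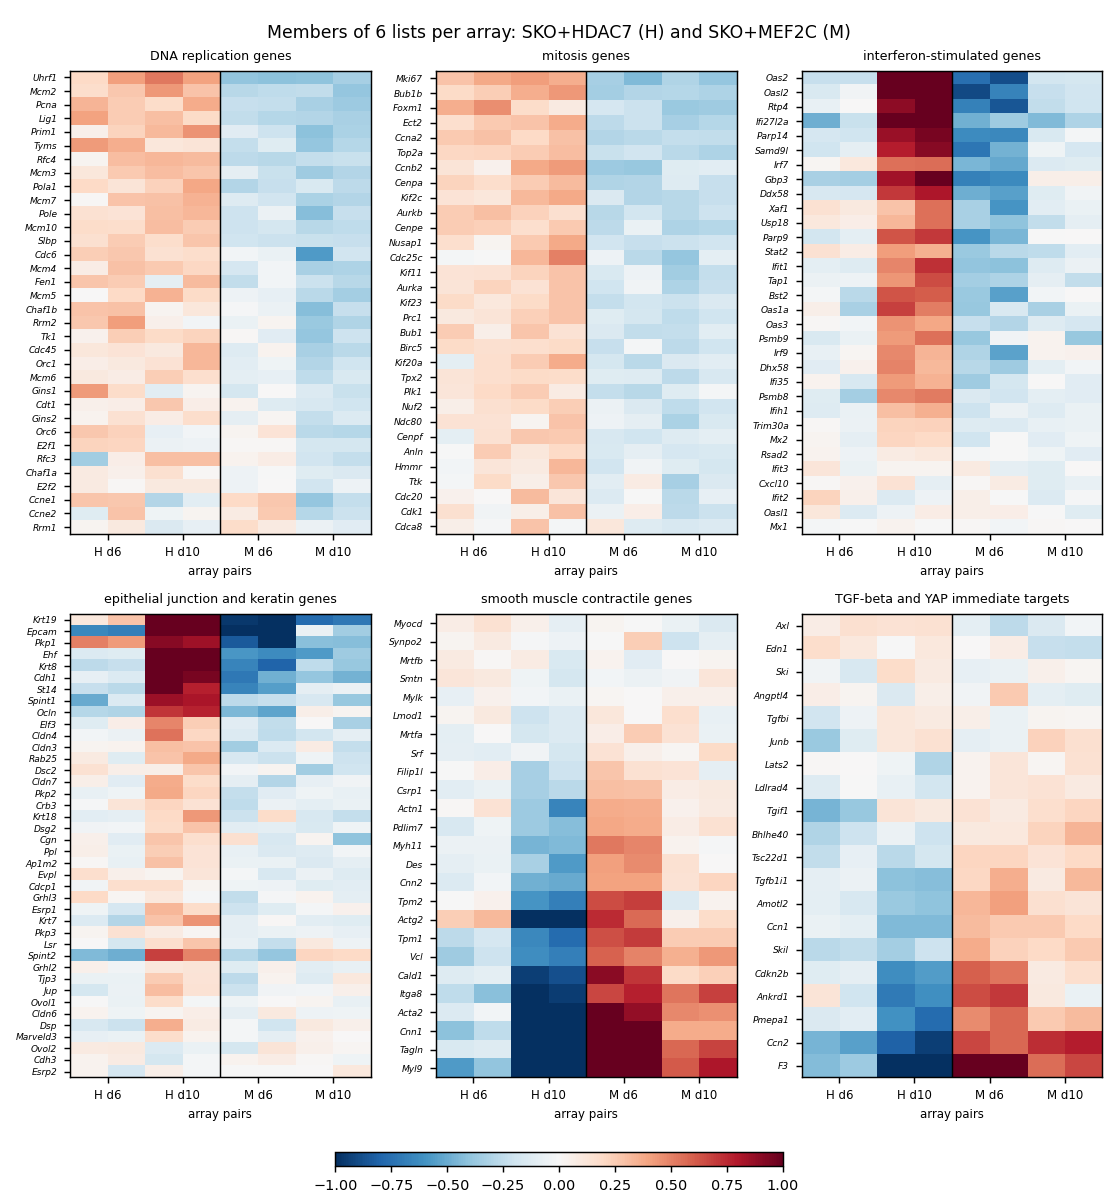
Members of 6 lists (rows, sorted by the difference over both days) on the 8 arrays (columns, 2 per group and day, SKO+HDAC7 left of the line and SKO+MEF2C right of it); colour is the log2 value minus the gene's mean over the 8 arrays, clipped at -1 and 1. Most replication and mitosis genes are higher in SKO+HDAC7 on both days, most called interferon and epithelial genes have their highest values in SKO+HDAC7 at day 10, and most called contractile genes theirs in SKO+MEF2C at day 6.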

How the data were processed

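Total RNA of 14 samples was hybridised to Affymetrix whole-transcript arrays, 1 per sample, per the labels' protocols. The authors deposited log2 expression values per probe set; the submitters' processing notes name RMA and Partek and give no version, and the build of the array annotation is not given in the sources used here. Groups and days come from the titles; a description repeated on all arrays names an unrelated sample and was not used. Of 28815 probe sets, 21780 had 1 gene symbol, 1605 several and 5430 no name here; the last 2 kinds were left out. Symbols were checked against RefSeq genes of GRCm38.p6 (21689 matched, 0 changed). A gene with several probe sets (998 genes) was represented by the probe set of highest mean across all 14 arrays, giving 19935 genes. No value was renormalized and no dim gene removed.

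Tests used limma 3.58.1 in R 4.3.3 (lmFit, eBayes) on the 8 compared arrays: vector plus day for both days together (5 residual and 4.29 prior degrees of freedom), and means of the 4 groups for each day and the change between days (4 and 5.48). Calls were made at 0.05 on p-values adjusted by Benjamini-Hochberg over all genes. The number of arrays limits the precision. Named genes were the transduced factors, the 15 largest differences in each direction among called genes with arrays apart within each day, the 5 largest in each direction for each day and for the change, up to 4 called members of each list, and called members against a list's majority; a few others are marked. The comparison, the 34 gene lists (821 of 872 entries measured) and the rule were chosen with earlier results of these data known, so lists are described by counts and medians. Alternatives covered the samples in the fit, the model, the prior, array weights, normalization, probe sets, a dim-gene filter, a minimum difference, a replicate block and leaving out each array. Tested on simulated data for 19935 genes (5 draws), the fit over both days found 61.8% of genes shifted by 0.3, 95.8% at 0.6 and 99.4% at 1, and made a mean of 7.8 false calls; day 6 gave 19.4%, 80.3% and 97.0% (5.2 false calls), and day 10 gave 18.8%, 83.6% and 97.3% (6.8 false calls). Each simulated shift was equal on both days, and the noise was normal with each gene's spread between replicates. No change between days was simulated, so the figures over both days may be too favourable for these data. Far fewer genes were shifted in each draw than were called in the data, and the adjusted threshold depends on that share. The false calls therefore cannot be set against the calls in the data, and the shares found may differ there.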

Additional observations from a re-analysis of the deposited data

Results flagged for a closer look

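The difference between SKO+HDAC7 and SKO+MEF2C was itself unequal on the 2 days for 584 genes by limma's test of the change, day 10 minus day 6. The genes named for it were Slc17a6 (change 2.01, adjusted p = 3.7e-05), Gbp4 (1.97, adjusted p = 7.76e-05), Ltf, the lactoferrin gene (1.85, adjusted p = 0.000155), Slc7a3 (1.79, adjusted p = 7.76e-05) and Epcam (1.74, adjusted p = 0.000275) on the positive side. On the negative side they were Anxa10 (-2.08, adjusted p = 3.7e-05), Tll1, a tolloid-like protease gene (-1.53, adjusted p = 0.000155), Tslp (-1.49, adjusted p = 0.000275), Parm1 (-1.42, adjusted p = 0.00207) and Mgp (-1.36, adjusted p = 0.00112). Parm1 stood at 7.63, 7.65, 6.49 and 6.57 in SKO+HDAC7 and at 7.50, 7.09, 7.66 and 7.57 in SKO+MEF2C, in the order day 6 then day 10, and its difference over both days did not pass the test (adjusted p = 0.358). Of 197 named genes, 73 had a called change, and 65 of these were further apart at day 10. The named genes were chosen in part by the size of their change or day 10 difference, which bears on both counts. Over all 19935 genes, 2.93% had a called change, and 78.6% of those were further apart at day 10. Each group and day has 2 arrays, so no single array could be set apart from its group.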

How the results depend on the processing

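No called direction was reversed among the 197 named genes under any alternative run. A required difference of at least 1 cut the calls to 169 over both days, 125 at day 6, 299 at day 10 and 44 for the change. Leaving out each array in turn gave 2934 to 3527 calls over both days, 1625 to 2925 at day 6, 2467 to 3645 at day 10 and 224 to 479 for the change, and 9 to 18 of the 191 called named genes lost their call each time; the lone array of a group was then assumed to vary like the others. The other alternatives kept each count within 1.5 times of the one reported: over both days 3137 to 4936, from the experiment number as a block within each day to group means in place of a day term, with 3555 among the genes above the median level (9967 tested), 3814 after quantile normalization and 3872 after median centring. With those fewer genes tested, the lower counts were 4 for chemokine and inflammatory genes, 6 for striated muscle genes, 2 for neuropeptide genes and 3 for fat and cartilage markers, and 5 pluripotency genes were higher. Of the calls, 45.1% were higher in SKO+HDAC7, against 48.6% with quantile normalization and 40.2% with median centring. Deviations of same-numbered arrays correlated between -0.0404 and 0.0534 over all genes. These values cannot show an effect of the experiment number that is limited to some genes or groups. Whether the number pairs cultures cannot be told from them, and the labels do not say. With the number as a replicate block, 3647 genes were called over both days, 3039 at day 6, 3614 at day 10 and 579 for the change (3137, 2970, 3527 and 485 with a block within each day). Of the 191 called named genes, 19 lost their call over both days with a block within each day, and 3 with a block over both days. Depth does not apply to arrays. Small differences are the limit, as the simulation shows within its own setting for a shift of 0.3 on a single day.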
